A study of Homo sapiens with 6 samples.

Results

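The BCL2 family of apoptosis regulators was followed in THP1 cells, a human acute monocytic leukemia line, after 6 h with WFA or with its DMSO vehicle. WFA stands for withaferin A, a plant-derived small molecule. The family was taken as 10 genes chosen by symbol, namely the anti-apoptotic members BCL2, BCL2L1, MCL1 and BCL2A1, the BH3-only members BCL2L11, PMAIP1, BBC3 and BID, and the effectors BAX and BAK1, and all 10 were found among the 26485 genes listed. RNA-seq of 3 DMSO and 3 WFA libraries, from 3 independent experiments on this single line, gave the number of reads per gene, and all 10 members were among the 12854 genes that passed a filter on low counts. The dose is 1 μM in the paper and 1 mM in the sample labels, and the first is used here.

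Apoptosis through the mitochondrion turns on whether BAX and BAK1 form pores in its outer membrane and so release cytochrome c. The anti-apoptotic proteins BCL2, BCL-xL, MCL1 and BFL1 hold BAX, BAK1 and the BH3-only proteins in a groove on their surface. The BH3-only proteins fill that groove or activate the effectors directly, and myeloid leukemia cells are known for their reliance on BCL2 and MCL1.

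The upstream sequences of the pro-apoptotic members whose counts differed between the groups are shown here, because these 5 genes did not all move in the same direction and the stretches before their starts differ in base composition. Sequences are RefSeq promoter windows of GRCh38.p14, 5′ to 3′ on the strand of the gene, cut where an annotated exon begins. Capitals mark the GC box GGGCGG and the CCAAT box, each read on both strands, and no base belonged to both kinds of box.
BCL2L11: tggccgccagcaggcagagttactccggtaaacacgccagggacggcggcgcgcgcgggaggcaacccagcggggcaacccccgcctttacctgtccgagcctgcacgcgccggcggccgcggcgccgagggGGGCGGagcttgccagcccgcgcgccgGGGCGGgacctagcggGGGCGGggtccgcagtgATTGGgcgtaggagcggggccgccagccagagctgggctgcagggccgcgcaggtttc
PMAIP1: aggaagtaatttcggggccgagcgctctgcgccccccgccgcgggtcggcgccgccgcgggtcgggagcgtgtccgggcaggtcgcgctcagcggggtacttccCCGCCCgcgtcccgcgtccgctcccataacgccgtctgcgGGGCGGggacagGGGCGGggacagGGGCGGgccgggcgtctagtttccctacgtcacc
BBC3: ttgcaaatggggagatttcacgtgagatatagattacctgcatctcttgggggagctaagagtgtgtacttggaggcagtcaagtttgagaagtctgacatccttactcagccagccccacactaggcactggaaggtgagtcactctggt
BAX: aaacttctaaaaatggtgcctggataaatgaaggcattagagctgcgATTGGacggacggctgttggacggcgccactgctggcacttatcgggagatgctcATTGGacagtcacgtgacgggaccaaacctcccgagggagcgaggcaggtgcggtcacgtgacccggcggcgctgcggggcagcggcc
BAK1: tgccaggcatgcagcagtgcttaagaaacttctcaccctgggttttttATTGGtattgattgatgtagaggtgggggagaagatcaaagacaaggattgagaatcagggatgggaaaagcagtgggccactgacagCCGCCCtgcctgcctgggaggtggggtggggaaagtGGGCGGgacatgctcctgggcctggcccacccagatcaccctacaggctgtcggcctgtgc

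BCL2L11 (chr2:111120664-111120913, plus strand), the pro-apoptotic gene that fell, and PMAIP1 (chr18:59899746-59899947, plus strand), which rose, had the most GC-rich stretches, with 76.8% and 76.2% G or C. They held 3 and 4 GC boxes. The stretch of BCL2L11 lies before a listed RefSeq start inside the gene, whose annotated span begins at chr2:111119378. BBC3 (chr19:47232767-47232917, minus strand) had 49.0% G or C and neither box in the stretch shown, although its full window held a CCAAT box. BAX (chr19:48954625-48954814, plus strand) held 2 CCAAT boxes, with a GC box only in its full window, and BAK1 (chr6:33580294-33580526, minus strand) held 2 GC boxes and 1 CCAAT box. Over the 250 bases before each listed start, 9 of the 10 genes had 14 windows, 5 of them for BID, and MCL1 had none. GGGCGG was found in 8 of the 14 windows, several of them of BID alone, and in 42.6% of 35116 windows of the same length. CCAAT was in 4 of the 14 and in 32.0% of all. Windows of the same gene are not separate observations, and these shares were not tested. The cAMP response element TGACGTCA, to which ATF proteins bind, was in 0 of the 14 windows and in 1.65% of all, and TGATGCAA, the letters of a C/EBP-ATF element, was in that of BCL2A1 alone among the members and in 0.772% of all. With N for any base, AACNG, the letters of a MYB site, was in 6 of the 14 windows and in 70.6% of all. The window of BCL2 did not hold it. The TATA box TATAAA was in 2 of the 14 windows and in 10.7% of all. The heat shock element GAANNTTC was in 1 of the 14, that of BAK1, and in 5.78% of all. These are matches of letters and not measured binding sites.

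The libraries held between 11006035 and 13872810 counted reads. The 100 most counted genes took 17.5% to 19.8% of the reads with DMSO and 23.2% to 23.5% with WFA. Of 12 genes that mark monocytic cells, 11 were counted more than 3 times in at least 1 library, and the neutrophil elastase gene ELANE was at 0. Their summed level was 2614 to 3132 CPM, scaled to library size, with DMSO and 2249 to 3031 with WFA. Of 11 tested, CD68 was higher and CD14, CD33, CSF1R and SPI1 were lower. With 45.5% called, near the 50.5% of all tested genes, this count is no result about the markers. The call of SPI1 (adjusted p = 0.0461 in edgeR) was lost in 6 of 14 alternatives, with adjusted p-values up to 0.207, namely upper-quartile scaling, the robust fit and leaving out DMSO replicate 1 or 2 or WFA replicate 1 or 3. Of 12 markers of other cells, 6 stayed at 3 counts or fewer, with the globin genes HBB and HBA1 at 0 in every library. Their sum was 364 to 408 with DMSO and 310 to 326 with WFA, and was mostly PECAM1, which monocytes also make. Among them COL1A1, a collagen gene, had 3, 4 and 10 counts with DMSO and 107, 106 and 135 with WFA. The part of these differences in the results below was not tested.

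The question was which members of the family had changed at RNA level when WFA had acted for 6 h. Levels are given as CPM, counts scaled to the same library size after TMM normalization. Of the 10 members, 7 were higher and 2 were lower with WFA when edgeR p-values were adjusted and held to 0.05, and BID was not called. Among all tested genes 50.5% were called, 25.8% as higher and 24.7% as lower, so a call alone is common in these libraries. The rises of BBC3 and BCL2A1 and the fall of BCL2 were over 2-fold, against 8.11% of all tested genes that were over 2-fold higher and 5.2% that were over 2-fold lower. In 9 of the 10 members the CPM values of the groups did not overlap, which held for 58.1% of all tested genes. The median log2 fold change of the members was 0.55, and that of all tested genes 0.02. Members of opposing function rose side by side, since 3 of 4 anti-apoptotic genes, 2 of 4 BH3-only genes and 2 of 2 effector genes were higher. The p-values rest on the spread between 3 experiments per group together with spread borrowed from other genes. The fit had 4 residual degrees of freedom from the libraries and a median of 10.8 prior ones from other genes. Counts per gene do not separate splice forms such as the long and short forms of MCL1, BCL-xL or BIM.

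**Figure D1:**
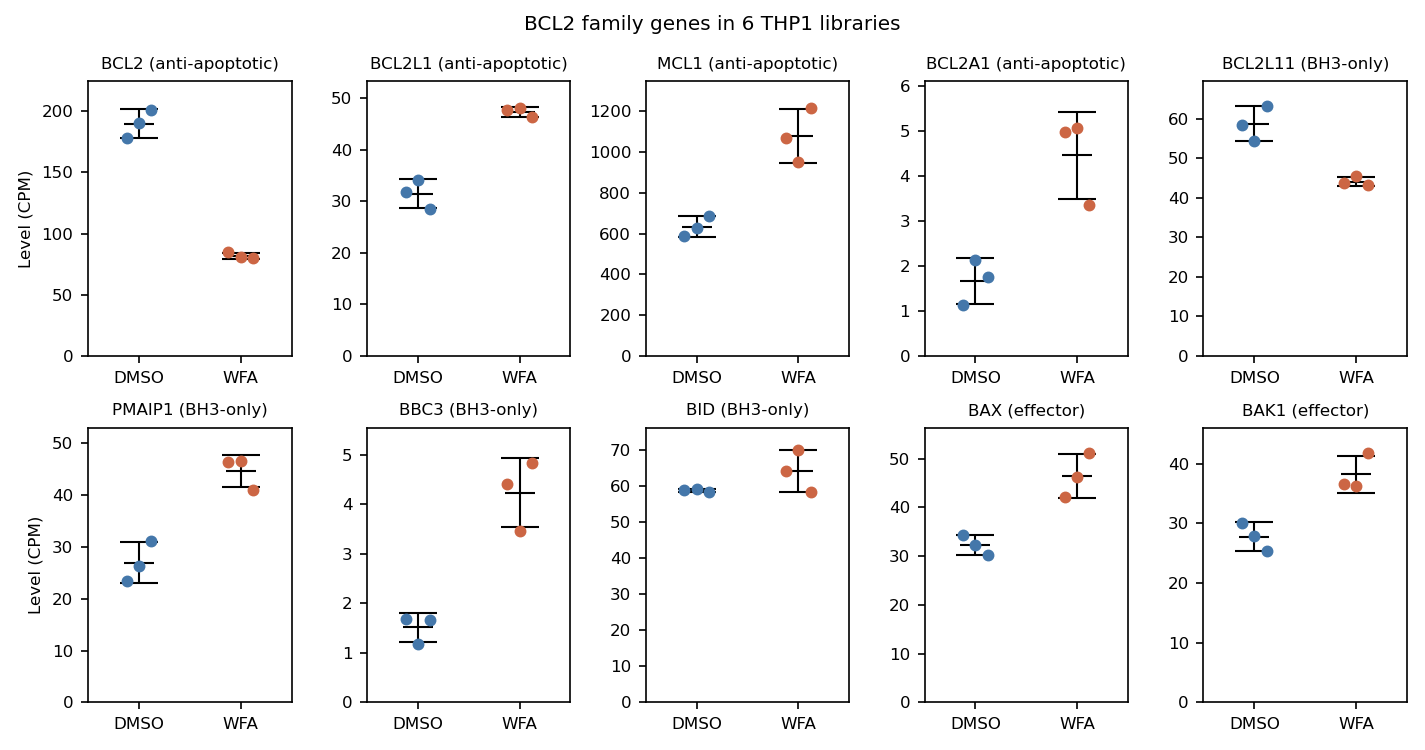
Level of each of the 10 members in CPM (y axis, from 0) in the 3 DMSO and 3 WFA libraries (points), with the mean and SD (black bars). BCL2 and BCL2L11 are lower with WFA, the groups overlap for BID, and the other 7 genes are higher.

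BCL2, the founding anti-apoptotic member (chr18:63123346-63320128, minus strand, GRCh38 as for all positions here), had the largest fall. It was at 178, 190.3 and 201 CPM in the DMSO libraries 1, 2 and 3, and at 84.7, 80.8 and 80.2 CPM in the WFA libraries. Every WFA library lay below every DMSO library, and the WFA values were close together. The mean went from 190 ± 11.7 to 81.9 ± 2.45 CPM (SD, n = 3 each), which is 2.32-fold lower, with a log2 fold change of -1.21 (edgeR SE 0.08, with adjusted p = 2.96e-08). In RNA pooled from many cells, less BCL2 RNA in each cell and fewer cells that make it cannot be told apart.

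MCL1 (chr1:150574551-150579738) encodes a short-lived anti-apoptotic protein and went the other way. It was at 586, 625 and 688 CPM with DMSO and at 1069, 951 and 1214 CPM with WFA. The lowest WFA library was well above the highest DMSO library, while the WFA libraries spread more widely. The mean rose from 633 ± 51.6 to 1078 ± 132 CPM (SD, n = 3 each), which is 1.70-fold, with a log2 fold change of 0.77 (edgeR SE 0.11, with adjusted p = 2.98e-05).

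BCL2L1, which encodes BCL-xL (chr20:31664452-31723989), rose less. Its values were 31.9, 34.0 and 28.6 CPM with DMSO and 47.8, 48.0 and 46.2 CPM with WFA. The WFA libraries were nearly level with each other. The rise was 1.5-fold, with a log2 fold change of 0.59 (edgeR SE 0.10, with adjusted p = 0.000184). In the annotation used here 1224 exon bases of BCL2L1 are shared with ABALON on the opposite strand, and the library kit does not mark strand. ABALON had at most 7 counts in any library.

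BCL2A1, which encodes BFL1 and is known as an NF-kB target (chr15:79960889-79971446), was scarce. It had 16, 27 and 21 counts with DMSO and 61, 63 and 36 counts with WFA. In CPM these were 1.13, 2.13 and 1.75 against 4.98, 5.07 and 3.35. WFA library 3 was lower than the other two but still above each DMSO library. The rise was 2.71-fold, with a log2 fold change of 1.44, with a standard error of 0.27, the widest among the 10 members (adjusted p = 0.000498 in edgeR).

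The 4 anti-apoptotic genes therefore did not move together. In CPM per kilobase of exon, MCL1 made up 84.0%, 83.6% and 85.4% of their summed level in the DMSO libraries and 90.2%, 89.1% and 91.9% in the WFA libraries. The share of BCL2 went from 8.88%, 8.85% and 8.70% to 2.49%, 2.64% and 2.11%. For BCL2L1 the shares overlapped, with 6.53%, 6.50% and 5.07% against 5.76%, 6.43% and 5.00%. These shares depend on the length used, which for BCL2 was 11741 exon bases against 7461 bases for its longest coding transcript. They are a description and were not tested.

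Among the BH3-only genes, BBC3, which encodes PUMA (chr19:47220822-47232766), had the largest fold of all 10 members. It had 24, 15 and 20 counts with DMSO and 54, 43 and 52 counts with WFA, or 1.69, 1.18 and 1.67 CPM against 4.41, 3.46 and 4.84 CPM. Replicate 2 was the lowest library of each group. The rise was 2.77-fold, with a log2 fold change of 1.47 (edgeR SE 0.25, with adjusted p = 0.000199). The 95% interval of the fold ran from 1.91 to 4.03, and that of BCL2A1 from 1.80 to 4.06, so the order of these small counts is not settled.

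PMAIP1 encodes NOXA, which binds mainly MCL1 and BFL1 (chr18:59899948-59904306). It was at 23.4, 26.3 and 31.2 CPM with DMSO and at 46.4, 46.6 and 41.0 CPM with WFA. The groups came closest in replicate 3, where the log2 difference between the same-numbered libraries was 0.39, against 0.98 and 0.82 in replicates 1 and 2. The rise was 1.66-fold, with a log2 fold change of 0.73 (edgeR SE 0.12, with adjusted p = 0.000113).

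BCL2L11, which encodes BIM, a BH3-only protein that binds every anti-apoptotic member (chr2:111119378-111168447), was the pro-apoptotic gene that fell. It was at 58.5, 54.4 and 63.2 CPM with DMSO and at 43.6, 45.4 and 43.2 CPM with WFA. The WFA values lay together, below the DMSO values. The fall was 1.33-fold, with a log2 fold change of -0.41 (edgeR SE 0.09, with adjusted p = 0.00184). On the opposite strand, MIR4435-2HG shares 727 exon bases with BCL2L11. It had at most 61 counts and was not called, with a log2 fold change of 0.24 (adjusted p = 0.341 in edgeR). The effect of these shared bases on the counts of BCL2L11 was not tested.

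BID (chr22:17734138-17774770), whose protein is activated when caspase-8 cuts it, was at 58.8, 59.2 and 58.4 CPM with DMSO and at 64.1, 69.9 and 58.3 CPM with WFA. The groups overlapped, because WFA library 3 was as low as the DMSO libraries. The log2 fold change was 0.12 (edgeR SE 0.09, with adjusted p = 0.276), with a 95% interval from -0.07 to 0.32. A rise of up to 1.25-fold or a fall to 0.952 of the DMSO level therefore lies within the error.

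Both effector genes rose by a similar size. BAX (chr19:48954815-48961798) was at 34.3, 32.4 and 30.2 CPM with DMSO and at 42.1, 46.2 and 51.1 CPM with WFA, a log2 fold change of 0.52 (edgeR SE 0.10, with adjusted p = 0.000739). BAK1 (chr6:33572547-33580293) was at 30.1, 28 and 25.3 CPM with DMSO and at 36.6, 36.3 and 41.8 CPM with WFA, a log2 fold change of 0.46 (edgeR SE 0.11, with adjusted p = 0.00271). For BAX and BAK1 alike the groups did not overlap, and replicate 3 held the lowest DMSO and the highest WFA value. The folds were 1.44 and 1.37, with 95% intervals from 1.23 to 1.68 and from 1.17 to 1.61. BAK1 has processed pseudogenes, BAK1P1 and BAK1P2, whose counts are not listed, so reads shared with them cannot be assessed.

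**Figure D2:**
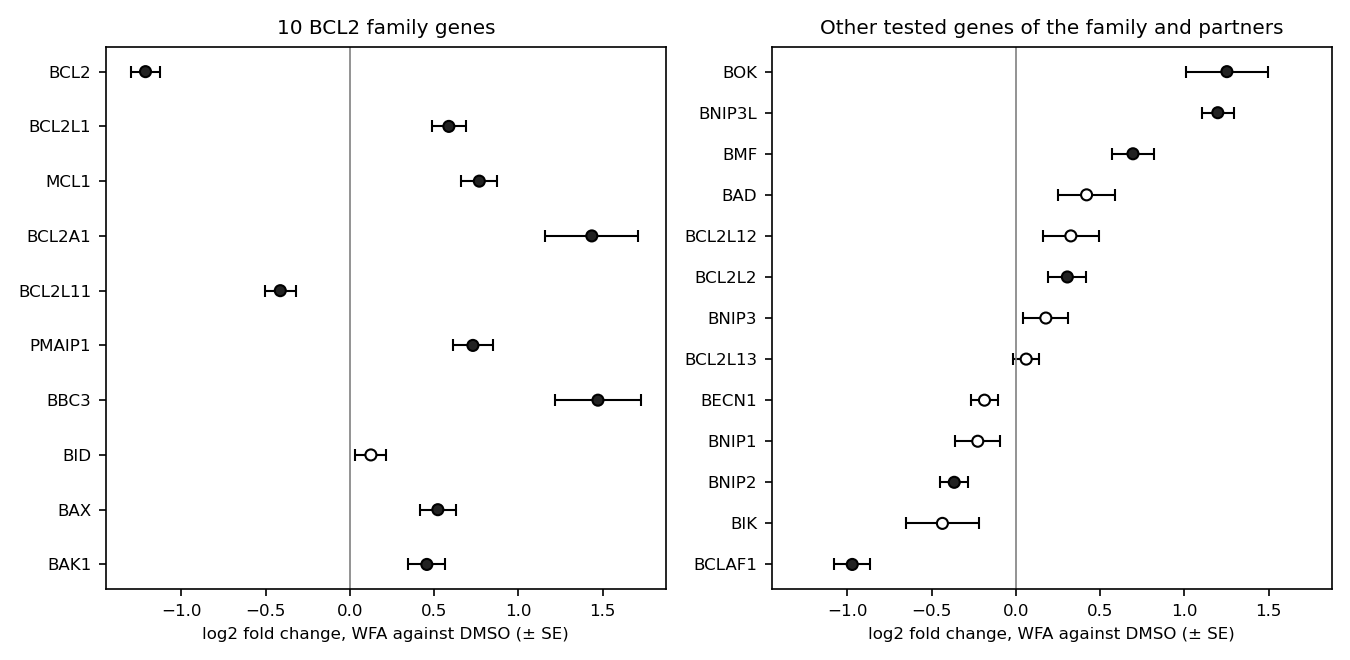
Log2 fold change of WFA against DMSO (x axis) with its standard error for the 10 members (left) and for 13 further tested genes of the family and its partners (right), where filled points passed an edgeR adjusted p-value of 0.05 and open points did not. BCL2 at -1.21 and BCL2L11 at -0.41 are the members to the left of 0, and BBC3 at 1.47 and BCL2A1 at 1.44 lie farthest to the right.

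Levels were compared between genes per kilobase of annotated exon. In DMSO the order was MCL1 with a mean of 155 CPM per kb, BAX with 22.9, BID with 20.9, BCL2 with 16.2, PMAIP1 with 12.9, BAK1 with 12.6, BCL2L1 with 11.0, BCL2L11 with 9.63, BCL2A1 with 1.53 and BBC3 with 0.723. MCL1 stood far above the rest. The library ranges of PMAIP1, BAK1, BCL2L1 and BCL2L11 overlapped from each to the next, so their order is not resolved. With WFA the order was MCL1 with 264 CPM per kb, BAX with 32.9, BID with 22.8, PMAIP1 with 21.3, BAK1 with 17.3, BCL2L1 with 16.6, BCL2L11 with 7.23, BCL2 with 6.98, BCL2A1 with 4.10 and BBC3 with 2.02. BCL2 thus went from place 4 to place 8, level with BCL2L11, whose range it overlapped, and BID overlapped PMAIP1 as BAK1 did BCL2L1. The place of BCL2 depends on the length used, since its longest coding transcript has 7461 bases against 11741 exon bases. By the longest coding transcript of each gene, BCL2 took place 2 with DMSO and place 7 with WFA. Its DMSO range then overlapped that of BAX, so place 2 is not resolved.

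**Figure D3:**
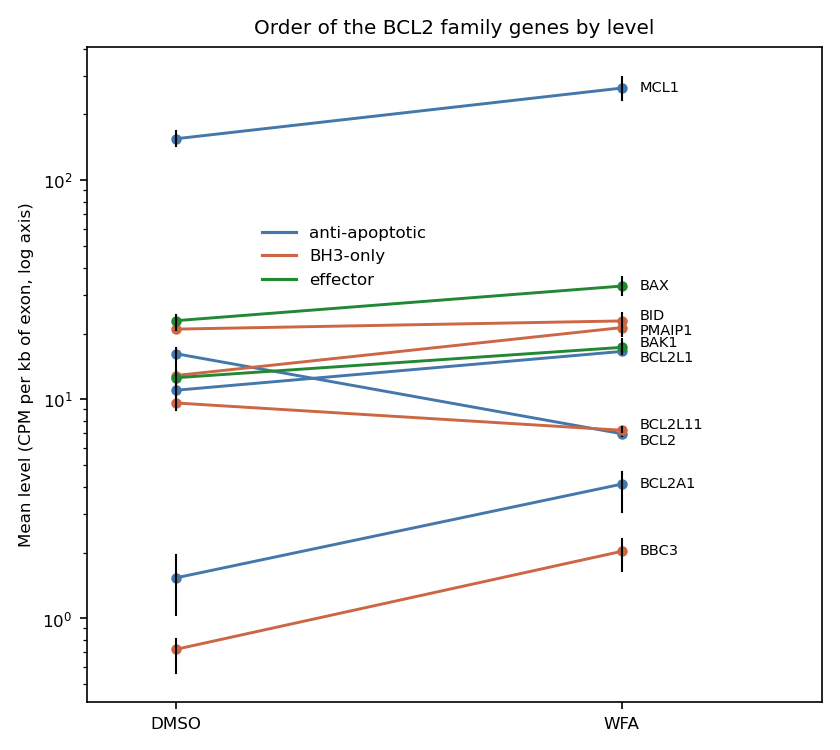
Mean level of each member in CPM per kb of exon on a log axis for DMSO and WFA, with lines coloured by role and black bars for the lowest and highest library. BCL2 goes from 16.2 to 6.98 and crosses below BCL2L1, PMAIP1 and BAK1, while MCL1 stays highest at 155 and 264.

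Ratios of read counts within a library do not depend on how libraries are scaled. BAX to BCL2, an effector over an inhibitor, was 0.193, 0.170 and 0.150 with DMSO and 0.498, 0.572 and 0.637 with WFA. Each WFA library was above each DMSO library, and the ratio was 3.33-fold higher. In a two-sided test over all permutations (exact), p was 0.1, and 0.15 after adjustment over the 3 ratios. The value 0.1 is the smallest that 3 libraries against 3 can reach when taken as unpaired. For all 3 ratios the permutations took no account of replicate number, and no paired test was run. BCL2L11 to BCL2L1 was 1.83, 1.60 and 2.21 with DMSO and 0.913, 0.946 and 0.934 with WFA, which is 2.0-fold lower (exact permutation p = 0.1, adjusted 0.15). PMAIP1 to MCL1, the gene of NOXA over that of its main partner, was 0.0400, 0.0421 and 0.0454 with DMSO and 0.0434, 0.0490 and 0.0338 with WFA. The groups overlapped (exact permutation p = 0.9), and WFA library 3 went the other way from libraries 1 and 2. Its log2 difference was -0.03, and 0.12 without WFA replicate 3 or 0.02 without DMSO replicate 3.

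**Figure D4:**
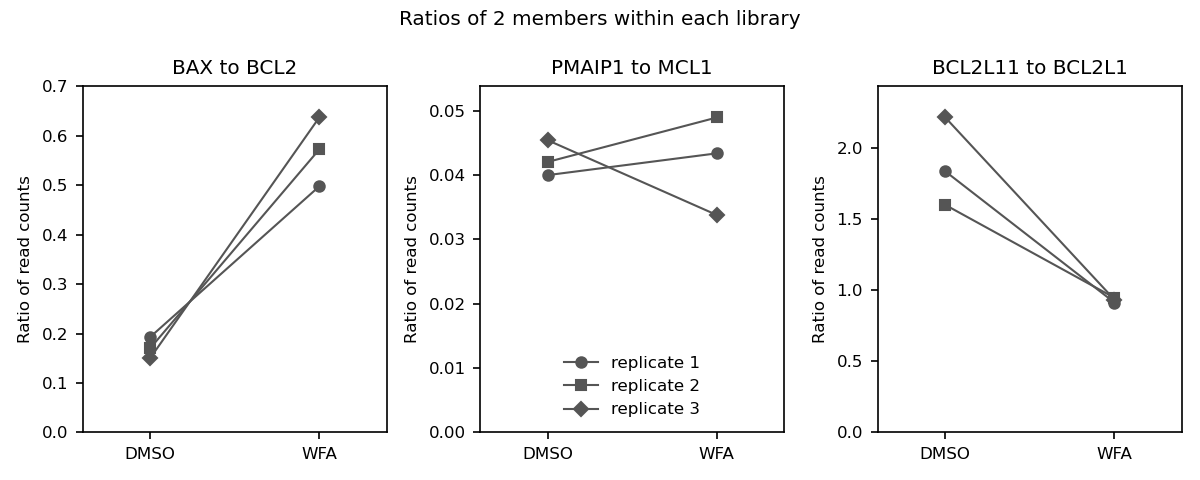
Ratio of read counts of BAX to BCL2, of PMAIP1 to MCL1 and of BCL2L11 to BCL2L1 (y axes, from 0) in each library, with lines joining libraries of the same replicate number. BAX to BCL2 rises from at most 0.193 to at least 0.498, BCL2L11 to BCL2L1 drops to between 0.913 and 0.946, and the lines of PMAIP1 to MCL1 cross.

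Of 17 other genes of the family and its partners, 13 were tested, with 4 higher, 2 lower and a median log2 fold change of 0.18. The share called was 46.2%, near the 50.5% of all tested genes, so this count is no result about the list. With the replicate block 6 were higher and 3 lower in edgeR, and 3 and 2 in DESeq2. BNIP3L, a mitochondrial protein that marks mitochondria for autophagy, rose from 51.3 ± 2.55 to 118 ± 12.7 CPM (n = 3 each, ± SD), and its log2 fold change was 1.20 (adjusted p = 1.29e-07 in edgeR). BOK, an effector-like relative of BAX, was scarce and rose from 2.67 ± 0.724 to 6.40 ± 1.36 CPM (n = 3 each, ± SD), and its log2 fold change was 1.25 (adjusted p = 0.000545 in edgeR). BMF, a BH3-only gene, rose with a log2 fold change of 0.70 (adjusted p = 0.000302 in edgeR). In the other direction, BCLAF1, a nuclear protein named for its binding to BCL2, went from 408 ± 45.7 to 208 ± 23.0 CPM (n = 3 each, ± SD), and its log2 fold change was -0.97 (adjusted p = 2.89e-06 in edgeR), and BNIP2 had -0.37 (adjusted p = 0.00191 in edgeR). The untested genes were BCL2L10, BCL2L14, BCL2L15 and HRK. HRK and BCL2L14 were at 0 in every library, while BCL2L15 had at most 13 counts.

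A list around the mitochondrial outer membrane and the apoptosome held 11 tested genes, with 2 higher, 3 lower and a median log2 fold change of -0.14. With 45.5% called, near the 50.5% of all tested genes, this count is no result about the list. APAF1, the scaffold on which cytochrome c assembles the apoptosome, was at 147, 149 and 163 CPM with DMSO and at 84.1, 83.8 and 77.7 CPM with WFA. It fell with a log2 fold change of -0.90 (edgeR SE 0.08, with adjusted p = 5.86e-07). CASP9, the caspase it activates, was at 11.3, 10.7 and 10.6 CPM with DMSO and at 17.6, 18.4 and 20.01 CPM with WFA. It rose with a log2 fold change of 0.78 (edgeR SE 0.13, with adjusted p = 0.00013). Of the channel genes, VDAC3 had a log2 fold change of -0.43 (adjusted p = 0.000684 in edgeR) and VDAC1 of 0.28 (adjusted p = 0.0235 in edgeR). The call of VDAC1 was lost in 5 of 14 alternatives, among them total counts and leaving out DMSO replicate 2 or 3 or WFA replicate 1 or 2, with adjusted p-values up to 0.0939 over the 14.

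Protein levels of MCL1, BIM, NOXA and BID also depend on their turnover. Of 15 genes listed for it, 14 were tested, with 5 higher, 2 lower and a median log2 fold change of 0.09. Calls made up 50% of these, near the 50.5% of all tested genes, so this count is no result about the list. CDC20, a mitotic activator of the ubiquitin ligase APC/C, had a log2 fold change of -0.80 (adjusted p = 0.000164 in edgeR), and USP13, a deubiquitinase that acts on MCL1, of -0.57 (adjusted p = 0.000218 in edgeR). USP9X, another deubiquitinase of MCL1, was higher with 0.33 (adjusted p = 0.0057 in edgeR), and so was the ubiquitin ligase subunit BTRC with 0.51 (adjusted p = 0.00611 in edgeR).

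The transcription factors known to act on members held 20 tested genes, of which 8 were higher and 5 lower, with a median log2 fold change of -0.01. The share called was 65%, against 50.5% of all tested genes, and this difference was not tested. MYB, for which BCL2 is a known target gene, was at 401, 372 and 414 CPM with DMSO and at 86.5, 92.6 and 61.4 CPM with WFA, a log2 fold change of -2.30 (adjusted p = 2.89e-09 in edgeR). MYC had -2.21 (adjusted p = 2.49e-10 in edgeR). DDIT3, the gene of CHOP, was at 28.8, 30.7 and 32.0 CPM with DMSO and at 83.7, 75 and 131 CPM with WFA, a log2 fold change of 1.66 (adjusted p = 1.07e-06 in edgeR). ATF3 had a log2 fold change of 1.78 (adjusted p = 1.38e-06 in edgeR).

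Target genes of ATF4 and CHOP, which act on PMAIP1 and BBC3, and of NF-kB, which acts on BCL2A1, were counted in the same way. Of 14 tested ATF4 and CHOP target genes, 13 were higher and 1 was lower, with a median log2 fold change of 1.57. Among all tested genes 25.8% were higher and 24.7% lower. The list was chosen with earlier results of these data known, so this contrast is not independent of them and was not tested. The genes of the list with the lowest p were SLC7A11, PPP1R15A, DDIT3 and SESN2, at 2.38, 2.0, 1.66 and 1.92 on the log2 scale. Each of them was highest in WFA library 3, with PPP1R15A at 118, 110 and 210 CPM in WFA libraries 1, 2 and 3. VLDLR was the lower gene, at -0.44. Of 15 tested NF-kB target genes, 4 were higher and 5 lower, with a median of 0.03, and 60% were called against 50.5% of all tested genes. TNFAIP2 and CFLAR, an inhibitor of caspase-8, rose with 1.21 and 0.64, and TNFAIP3 and NFKB1 fell with -1.09 and -0.80. ATF3, DDIT3, CEBPB and NFKB1 also stand on the list of transcription factors.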

How the data were processed

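Total RNA of 6 THP1 cultures, 3 with DMSO and 3 with WFA, was sequenced as TruSeq RNA v2 libraries. The authors deposited raw counts of reads per gene. The submitters' processing notes name bcl2fastq 2.19, Trimmomatic, Bowtie2, Picard, featureCounts, DESeq2 and hg38, and the annotation and the handling of multiply mapped reads are not given in the sources used here. A further 6 columns of scaled values per library, and columns with group means and the authors' own comparison, were not used.

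All counts were fitted with edgeR 4.0.16 in R 4.3.3, using TMM scaling, filterByExpr with a minimum count of 10, the quasi-likelihood test and Benjamini-Hochberg adjustment over 12854 genes. Calls are adjusted p-values under 0.05. Counts per gene and library limit the precision. The members, gene lists and alternatives were chosen with earlier results of these data known. Named beyond the 10 members were up to 4 genes per list with the smallest p-value and up to 2 called against its more frequent direction. Lengths and positions came from GENCODE 29 and promoters from RefSeq (GRCh38). Alternatives were the replicate block, DESeq2 1.42.0, other scalings, no filter, a robust fit and leaving out each library. A further gene and the list tied to it are not reported here.

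Replicate numbers come from the sample titles, and the names of same-numbered columns end in the same 6 digits. The deviations of same-numbered libraries from the mean of their group correlated across genes at between 0.22 and 0.33, against -0.26 to 0.00 for other pairs. Deviations within a group cancel out, so these ranges are not independent of each other. The numbers are read as pairing the libraries, which was not tested. No 2 libraries of a group were within sampling noise of each other (chi-square per gene at least 5.98).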

Additional observations from a re-analysis of the deposited data

How the results depend on the processing

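In the fit with the replicate block 7 members were higher and 2 lower, as without it, and the block changed no call among the 10 members. It gave BCL2 a log2 fold change of -1.21 and BBC3 one of 1.48. Its prior degrees of freedom were infinite, so its calls rest on spread borrowed from all genes and not on that of each gene. Its p-values are not printed here. The 7 and 2 calls were also found in each of the other 13 alternatives, and BID was called in none of the 14, with log2 fold changes between 0.04 and 0.19. With each library left out in turn, BCL2 stayed between -1.26 and -1.17, MCL1 between 0.68 and 0.85, BBC3 between 1.31 and 1.60, BCL2A1 between 1.20 and 1.64, and BAK1 between 0.39 and 0.52. The log2 difference of PMAIP1 to MCL1 ran from -0.15 to 0.12 and changed sign, while that of BAX to BCL2 ran from 1.64 to 1.83. Total counts in place of TMM lowered log2 fold changes by a median of 0.08 and gave 2763 higher and 3875 lower genes among all tested. BBC3 and BCL2A1 rest on at most 63 counts in a library, which limits the precision of their folds.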

Other observations

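The genes whose log2 CPM followed a member most closely over the 6 libraries were TMEM97, LMTK2 and EPG5 for BBC3, with Pearson correlations of 0.999, 0.998 and 0.998, and PPAT, ILF2 and RPF2 for BCL2, with 1.000, 0.999 and 0.999. With 2 groups of libraries such values are common, since 992 of 11715 genes had a correlation over 0.95 with BBC3 and 1314 with BCL2. The points share their libraries and the difference between the groups, so the values describe the likeness and test nothing.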
